A study of Homo sapiens with 6 samples.

Results

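The miRNAs miR-143 and miR-145 are cut from neighbouring hairpins of one host transcript on chromosome 5q32, and each hairpin gives a 5p and a 3p arm. All 4 arms, hsa-miR-143-3p, hsa-miR-143-5p, hsa-miR-145-5p and hsa-miR-145-3p (hsa for human, left out from here on), were taken by name from a count table of 2656 mature miRNAs, and each of the 4 had counts in at least 1 library. Small RNA had been sequenced from 3 libraries of azacitidine-resistant K562 cells and 3 libraries of azacitidine-sensitive K562 cells. K562 is a human erythroleukaemia line, called myeloblast in the labels, and azacitidine is a cytidine analogue that traps DNA methyltransferases. Resistant cells came from sensitive cells kept in rising azacitidine concentrations for several months. Both forms grew in RPMI medium with serum, penicillin and streptomycin. The labels do not say whether the drug was present at harvest, and the letters NT that end every library name are not explained there. Replicates are called biological, but no separate selections of resistant cells are named, so p-values measure the spread between these libraries.

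MiR-143 and miR-145 are known as paired miRNAs of smooth muscle and other mesenchymal cells, where serum response factor and myocardin drive their host. In epithelial and blood cancers they are often low and are studied as growth-restraining miRNAs. MiR-143-3p represses ERK5 and DNMT3A transcripts, of which DNMT3A encodes a DNA methyltransferase. MiR-145-5p represses transcripts of the stem cell factors OCT4, SOX2 and KLF4, of IRS1 and of the innate immune adaptor TIRAP. The tumour suppressor p53 raises these miRNAs by promoting transcription and hairpin processing. K562 cells are known to lack functional p53.

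The hairpins are shown first, since the result turns on how the counts divide between them. Both lie on the plus strand (RefSeq, GRCh38.p14), MIR143 at chr5:149428918-149429023 and MIR145 at chr5:149430646-149430733, with 1622 bases between them. The host gene, CARMN, is also called MIR143HG and spans chr5:149406845-149432836. In GENCODE 29, 1 of the 12 annotated CARMN transcripts spans both hairpins. In that transcript MIR143 lies inside exon 4 (chr5:149428883-149429039) and MIR145 in the intron after it. The hairpin sequences follow with the arms in capitals, the 5p arm before the 3p arm.
MIR143: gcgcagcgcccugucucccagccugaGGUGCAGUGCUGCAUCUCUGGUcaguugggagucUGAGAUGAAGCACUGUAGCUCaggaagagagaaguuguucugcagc
MIR145: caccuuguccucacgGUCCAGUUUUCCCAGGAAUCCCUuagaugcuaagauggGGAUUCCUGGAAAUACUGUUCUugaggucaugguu

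The mature arms have 4 different seeds (bases 2 to 8, in capitals below), the part of a miRNA that chiefly selects its targets. Among the other miRNAs of the count table with a mature sequence in the reference used, 2 carry the miR-143-3p seed. None was found there with another of these seeds. That reference held a sequence for 88.2% of tested miRNAs, so miRNAs that share a seed with a member may have been missed. MiR-4770, from the X chromosome, is close to miR-143-3p over most of its length and is printed beside it. MiR-4770 and miR-6088 each had 0 counts in all 6 libraries, so no counts were assigned to either look-alike.
miR-143-3p: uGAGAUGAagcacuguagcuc
miR-143-5p: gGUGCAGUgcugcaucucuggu
miR-145-5p: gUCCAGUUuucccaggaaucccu
miR-145-3p: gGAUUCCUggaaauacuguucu
miR-4770: uGAGAUGAcacuguagcu

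Library totals ran from 3291500 to 10644739 counts in resistant cells and from 5660055 to 12563945 counts in sensitive cells. Resistant replicate 3 stood apart from the rest. Its log2 CPM correlated with resistant replicates 1 and 2 at 0.875 and 0.864 across the 768 tested miRNAs (Pearson), while these correlated with each other at 0.995. MiR-92a-3p took 58.6% of its counts, against 17.5% and 20.2% in the other resistant libraries and 10.5% to 14.3% in sensitive libraries. The erythroid miRNAs chosen as markers of the line, miR-451a and both arms of miR-144 and miR-486, all had counts. Their summed level was 10830 to 65207 CPM in resistant and 5526 to 7363 CPM in sensitive libraries, most of it from miR-486-5p. The list did not move as 1, with 2 positive and 3 negative log2 fold changes (median -0.0016). MiR-451a, miR-144-3p and miR-144-5p were at -0.94, -0.41 and -0.0016. With all libraries 0 of these 5 passed with edgeR (2 had an unadjusted p under 0.05). DESeq2 called 2 of these 5 higher, in a fit that called 98 of all 768 tested miRNAs higher and 51 lower. MiR-486-5p was at 28668 ± 30035 CPM in resistant and 5677 ± 813 CPM in sensitive cells (SD, n = 3 each), with a log2 fold change of 2.34 (adjusted p = 0.130 in edgeR). It was at 63289 CPM in resistant replicate 3, and without that library it rose (log2 fold change 1.05, edgeR adjusted p = 0.00218), as did miR-486-3p. Results on the members are given with all libraries and, where that library moves them, without it.

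The arms of the 2 hairpins had fold changes in opposite directions. MiR-145-5p fell in resistant cells, with an adjusted p near the threshold (0.0467 in edgeR) that several other settings moved past it, and miR-145-3p had a negative fold change that missed the threshold. MiR-143-3p was 6.10-fold and 6.71-fold above the sensitive mean in resistant replicates 1 and 2 but not in resistant replicate 3, and it did not pass the test over all 6 libraries. Levels are in CPM, read counts scaled to a common library size, here with TMM factors that correct for differences in composition between libraries. Fold changes are resistant over sensitive on the log2 scale, with approximate standard errors (SE).

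MiR-145-5p, the more abundant arm of its hairpin, had 26.0, 29.1 and 22.8 CPM in resistant replicates 1 to 3 (256, 386 and 58 counts). It had 99.9, 82.8 and 82.5 CPM in sensitive replicates 1 to 3 (1200, 811 and 446 counts). Every resistant library was below every sensitive library. The means were 26.0 ± 3.17 CPM in resistant and 88.4 ± 9.93 CPM in sensitive cells (SD, n = 3 each), a 3.395-fold decrease (-1.76 on the log2 scale, SE 0.37, adjusted p = 0.0467 in edgeR). Of the 768 tested miRNAs, 2.08% were called lower and 2.08% higher, and miR-145-5p was the 1 called member of the 3 tested. Resistant libraries lay wholly below sensitive ones for 22.9% of all tested miRNAs. The decrease was present in each resistant library, at 3.39-fold, 3.04-fold and 3.88-fold below the sensitive mean. Leaving out any library other than resistant replicate 3 ended the call, with log2 fold changes from -1.53 to -1.75 and edgeR adjusted p from 0.0802 to 0.292. In edgeR the call also ended with RLE factors (adjusted p = 0.0571), library totals (0.0794), a minimum mean of 10 CPM (0.0599), a replicate block (0.112) and library totals without miR-92a-3p (0.0731).

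MiR-145-3p, the opposite arm of the same hairpin, had 14.96, 12.98 and 4.32 CPM in resistant replicates 1 to 3 (147, 172 and 11 counts). It had 41.1, 42.0 and 53.3 CPM in sensitive replicates 1 to 3 (494, 411 and 288 counts). The groups did not overlap, and resistant replicate 3 was the lowest of the 6 libraries. The log2 fold change was -2.05 (SE 0.52, edgeR adjusted p = 0.0727), which missed the threshold of 0.05. The means were 10.8 ± 5.66 CPM in resistant and 45.4 ± 6.79 CPM in sensitive cells (SD, n = 3 each).

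MiR-143-3p, the arm that makes up nearly all counts of its hairpin, had 101, 111 and 13.7 CPM in resistant replicates 1 to 3 (994, 1476 and 35 counts). It had 15.1, 10.2 and 24.4 CPM in sensitive replicates 1 to 3 (182, 100 and 132 counts). Resistant replicates 1 and 2 were above every sensitive library, and resistant replicate 3 was within the sensitive range. Resistant libraries lay wholly above sensitive ones for 18.9% of all tested miRNAs, and miR-143-3p was not among them. The means were 75.4 ± 53.6 CPM in resistant and 16.6 ± 7.21 CPM in sensitive cells (SD, n = 3 each). The log2 fold change was 2.19 (SE 0.77, edgeR adjusted p = 0.136) and did not pass. For resistant replicate 3, the exact 95% interval was 7.41 to 14.8 CPM of the unscaled library total (35 counts). For resistant replicates 1 and 2 it was 112 to 127 and 132 to 146, so counting error does not span the gap between these libraries. Such intervals cover counting error only, and no molecular identifiers are named in the labels.

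MiR-143-5p, the rarely kept arm, was counted 7, 8 and 0 times in resistant replicates 1 to 3 and 0 times in each sensitive library. It was seen in the same 2 libraries in which miR-143-3p was high. Summed over the groups, 15 counts stood against none, or at least 5.31-fold in these pooled counts with a floor of 3 counts over the sensitive group. The pooled counts carry no spread between libraries, and the groups overlapped, since resistant replicate 3 had 0 counts. It had too few counts to be tested in the main comparison. When every miRNA with a count was tested, it passed (edgeR adjusted p = 0.0394), on 15 counts in all. That fit called 115 of 1734 miRNAs higher and 47 lower.

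**Figure D1:**
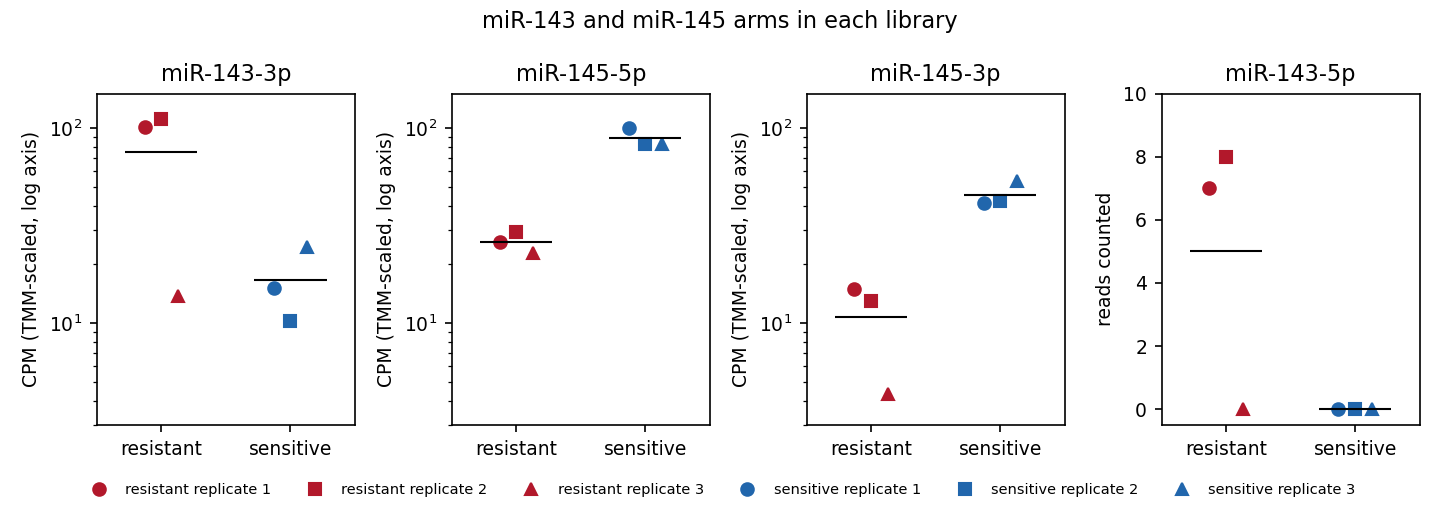
The level of miR-143-3p, miR-145-5p and miR-145-3p in each library (CPM, log axis) and the counts of miR-143-5p (linear axis), with resistant libraries left of sensitive ones, a marker shape per replicate and a line at the group mean. Resistant libraries lie below sensitive ones for both miR-145 arms, while miR-143-3p is at 101 and 111 CPM in 2 resistant libraries and at 13.7 CPM in resistant replicate 3.

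In the fit without resistant replicate 3, 3 of the 3 tested arms passed, in opposite directions for the 2 hairpins. MiR-143-3p rose 6.72-fold (2.75 on the log2 scale, SE 0.33, adjusted p = 9.62e-05 in edgeR). MiR-145-5p fell 3.08-fold (-1.63 on the log2 scale, SE 0.25, adjusted p = 0.000726 in edgeR) and miR-145-3p fell 3.14-fold (-1.65 on the log2 scale, SE 0.27, adjusted p = 0.00102 in edgeR). In that fit 13.7% of 822 tested miRNAs were called higher and 14.4% lower. The groups of 2 and 3 libraries did not overlap for any of the 3 arms, which was so for 27.3% of tested miRNAs with higher and 25.8% with lower resistant libraries. MiR-143-3p had the 17th highest log2 fold change, and the miR-145 arms had the 38th and 39th lowest. The library left out was chosen because it stood apart over all miRNAs, and miR-143-3p is also the member that it moves most.

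Resistant replicate 3 differed from resistant replicates 1 and 2 in a way that followed base composition. Its log2 deviation from their mean rose with the GC content of the mature sequence (Spearman's rho 0.715 over 677 tested miRNAs with a RefSeq sequence, miRNAs not being independent replicates). GC content is 47.6% in miR-143-3p, 52.2% in miR-145-5p and 40.9% in miR-145-3p, with a median of 47.8% over those tested. MiR-143-3p deviated by -2.94 in this library, while the 162 tested miRNAs within 3 percentage points of its GC content had a median of -0.30, and 2.47% of them were lower. MiR-145-3p deviated by -1.67, near the median of -1.69 among the 113 miRNAs of like GC content. MiR-145-5p deviated by -0.27, against a median of 0.30 among 136 such miRNAs. With a correction for GC content in each library, miR-145-5p and miR-145-3p passed (log2 fold changes -2.04 and -1.75, edgeR adjusted p = 0.0108 and 0.0207) and miR-143-3p did not (2.21, edgeR adjusted p = 0.0787). What set the low miR-143-3p count in resistant replicate 3 was not tested.

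The sign of each tested arm's fold change was the same under each scaling tried. The median log2 fold change over all tested miRNAs was -0.11 with TMM factors, 0.09 with library totals and 0.43 with library totals taken without miR-92a-3p. Relative to these medians, miR-143-3p was at 2.30, 2.42 and 2.22, miR-145-5p at -1.65, -1.67 and -1.65, and miR-145-3p at -1.94, -1.88 and -1.995.

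**Figure D2:**
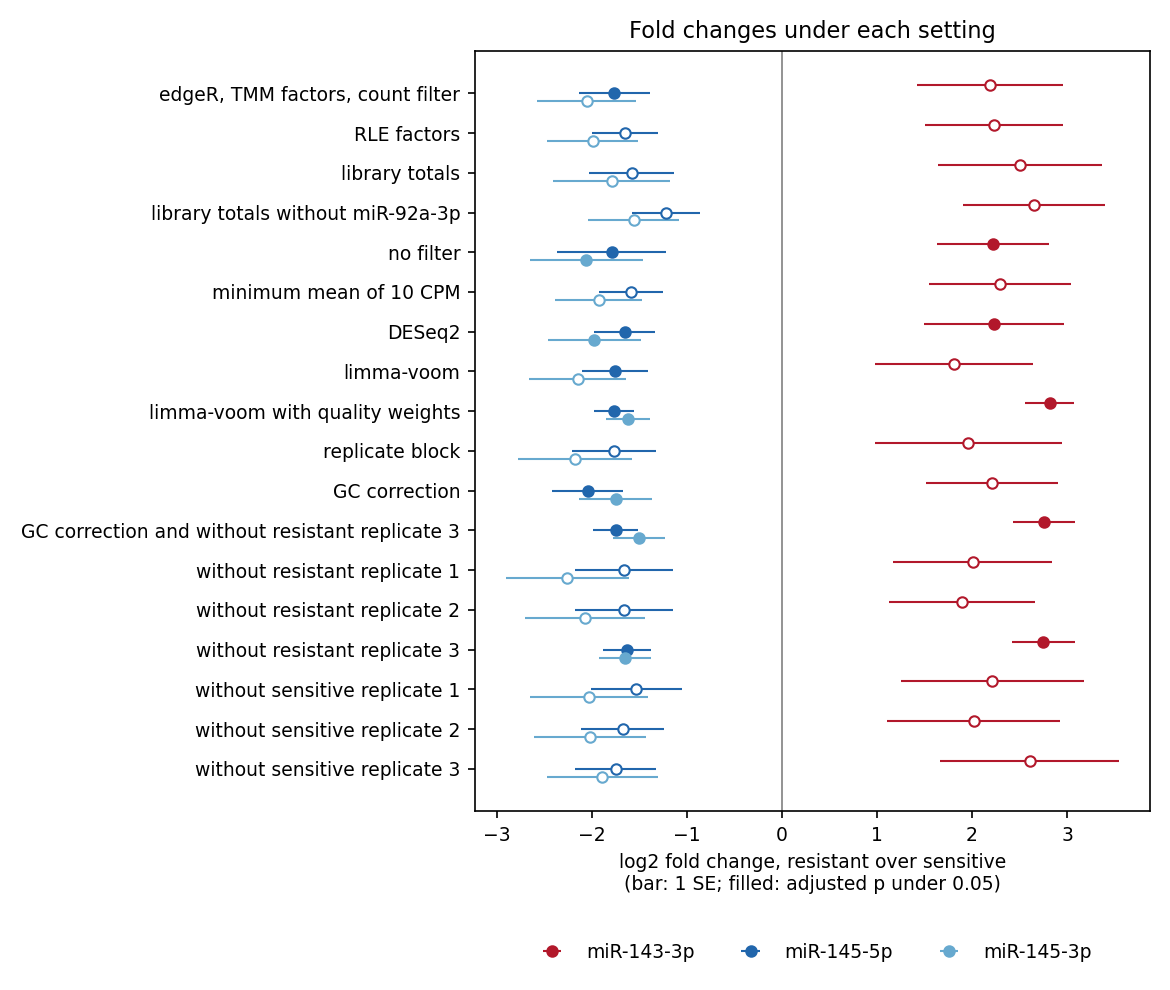
The log2 fold change (resistant over sensitive) of miR-143-3p, miR-145-5p and miR-145-3p under each normalization, filter, tool and left-out library, with bars of 1 SE and filled points where the adjusted p was under 0.05. MiR-143-3p lies between 1.81 and 2.82 and both miR-145 arms lie below 0 in every setting, while the calls differ between settings.

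The division of counts between the hairpins can be read within each library and so needs no scaling between libraries. It was not corrected for GC content, with which deviations in resistant replicate 3 rose. MIR143 gave 59.2 ± 22.1% of the pair's counts in resistant and 10.8 ± 3.96% in sensitive cells (SD, n = 3 each, exact permutation test, two-sided p = 0.1, the smallest possible). Of the counts from both hairpins and all 4 arms, MIR143 gave 71.3%, 72.7% and 33.7% in the resistant libraries 1 to 3, with exact 95% intervals of 68.9% to 73.7%, 70.7% to 74.6% and 24.7% to 43.6%. It gave 9.70%, 7.56% and 15.2% in the sensitive libraries 1 to 3, with exact 95% intervals of 8.399% to 11.1%, 6.20% to 9.12% and 12.9% to 17.8%. All 3 resistant libraries were above all 3 sensitive libraries. No interval of one group reached one of the other, but these intervals cover counting error only and not the spread between libraries. Groups also did not overlap in the count ratio for 35.7% of 70 neighbouring hairpin pairs, described below. Resistant replicate 3 again stood nearest to sensitive cells, on 104 counts.

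As a log2 ratio of miR-145 to miR-143 counts, resistant libraries had -1.31, -1.41 and 0.98 and sensitive libraries had 3.22, 3.61 and 2.48. The means were -0.58 ± 1.35 in resistant and 3.10 ± 0.58 in sensitive cells (SD, n = 3 each). The difference was -3.68, a 12.8-fold lower ratio (exact permutation test, two-sided p = 0.1, the smallest that 3 libraries against 3 allow). Without resistant replicate 3 the difference was -4.46, and for resistant replicate 3 alone against the sensitive mean it was -2.12. The order of the arms by counts differed as well. In resistant replicates 1 and 2 miR-143-3p was the highest of the 4 and in resistant replicate 3 it was between the miR-145 arms, whereas in every sensitive library it was below both of them. Ligation preferences of single miRNAs enter such an order, so it compares libraries rather than molecule numbers.

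The summed level of the 4 arms was close between resistant replicates 1 and 2 and the sensitive libraries. It was 142.9, 154 and 40.8 CPM in resistant replicates 1 to 3, and 156, 135 and 160 CPM in sensitive replicates 1 to 3. The groups overlapped (112.6 ± 62.4 CPM in resistant and 150.4 ± 13.5 CPM in sensitive cells, SD, n = 3 each, exact permutation test, two-sided p = 0.5).

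**Figure D3:**
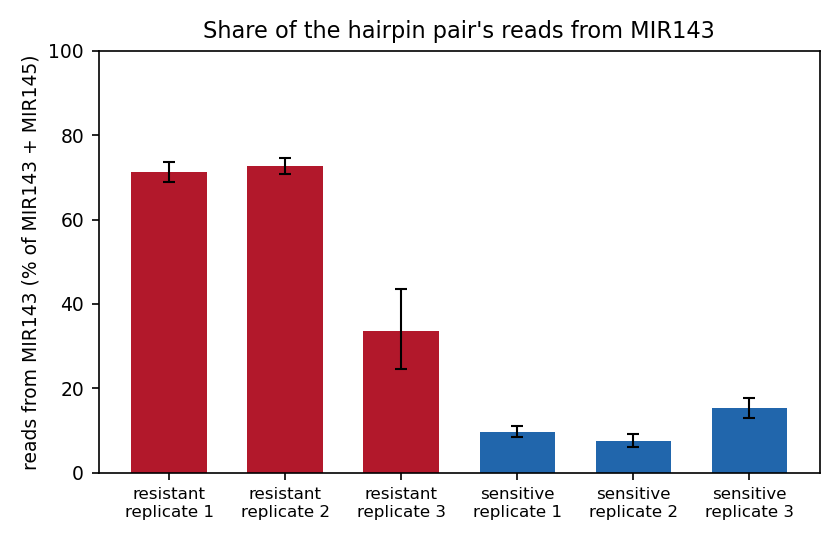
The share of the hairpin pair's counts that came from MIR143 (percent of MIR143 plus MIR145, both arms) in each library, with exact 95% binomial intervals, resistant libraries on the left. Resistant replicates 1 and 2 are at 71.3% and 72.7%, resistant replicate 3 is at 33.7%, and sensitive libraries are between 7.56% and 15.2%.

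Within a hairpin, the division between the arms did not separate the groups. MiR-145-5p made up 63.5%, 69.2% and 84.1% of its hairpin's counts in resistant replicates 1 to 3 and 70.8%, 66.4% and 60.8% in sensitive replicates 1 to 3. The means were 72.3 ± 10.6% in resistant and 66.0 ± 5.05% in sensitive cells (SD, n = 3 each), and the ranges overlapped (exact permutation test, two-sided p = 0.5). The high share in resistant replicate 3 rests on 69 counts, with an exact 95% interval of 73.3% to 91.8%. GC content is 52.2% in miR-145-5p and 40.9% in miR-145-3p, and deviations in that library rose with GC content. Whether this set the high share was not tested. Without that library the difference between resistant and sensitive means was 0.36 percentage points, against 6.26 with it. MiR-143-5p made up 15 of 2520 counts of its hairpin in resistant cells, or 0.595% (exact 95% interval 0.334% to 0.980%). In sensitive cells it was 0 of 414, for which the exact 95% upper limit is 0.887% (a floor of 3 counts corresponds to 0.725%). A difference in arm use of the miR-143 hairpin was thus not detectable at this depth, and the absence of miR-143-5p from sensitive libraries is within what their counts of the hairpin allow.

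To place the change in the hairpin ratio, the same log2 ratio (downstream over upstream) was taken for all neighbouring hairpins on 1 strand within 10 kb that had at least 10 counts in each library, counting only arms annotated to a single hairpin. This background was chosen after the values of miR-143 and miR-145 were seen. It held 70 pairs, of which 37 others lie on chromosome 14, and pairs of a cluster share hairpins. The difference between resistant and sensitive cells was under 1 in size for 50 of the 69 other pairs, with a median size of 0.55 (quartiles 0.26 and 1.03). At -3.68, MIR143 to MIR145 had the second largest size of the 70 and the most negative value. The largest was that of MIR99A to MIRLET7C on chromosome 21 (6.998). Reads of let-7c may not be separable from other let-7 members, and whether this bears on the value was not tested. Next in size were MIR19B1 to MIR92A1 (2.92) and MIR194-2 to MIR192 (-2.63), which were at 1.13 and -1.18 without resistant replicate 3. The MIR92A1 count left out miR-92a-3p, which is not annotated to a single hairpin. The groups did not overlap in this ratio for 35.7% of the 70 pairs, so a lack of overlap alone is common among them. Without resistant replicate 3, the size of the MIR143 to MIR145 difference was again second (-4.46, after 6.24 for MIR99A to MIRLET7C), the next was MIR377 to MIR541 (1.74), and the median size of the others was 0.28.

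**Figure D4:**
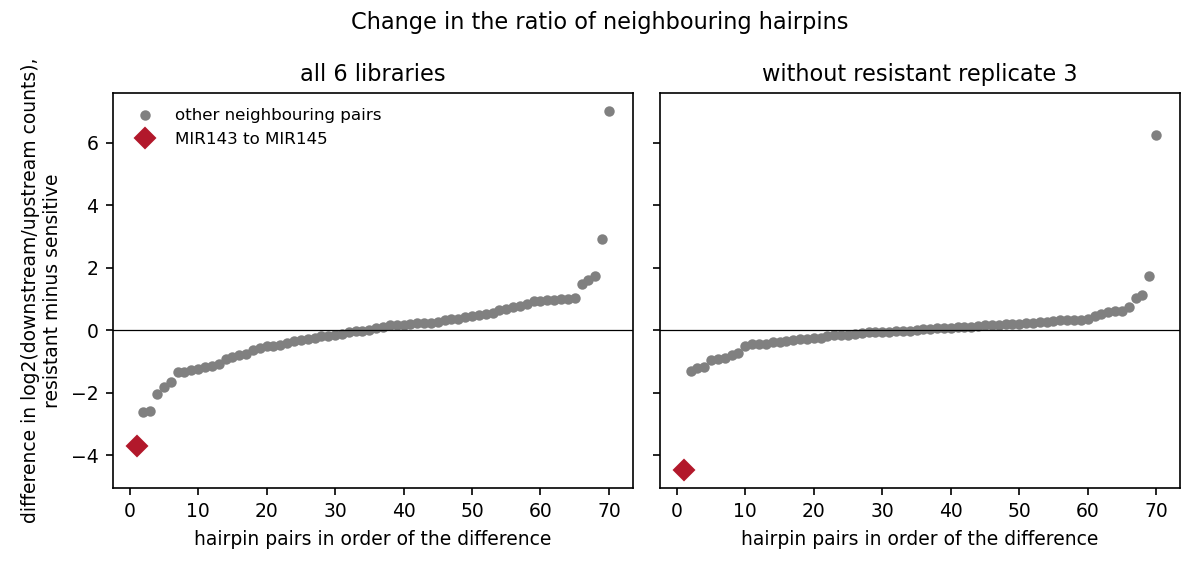
The difference in the log2 count ratio of neighbouring hairpins (downstream over upstream, resistant minus sensitive) for 70 pairs in ascending order, with all 6 libraries on the left and without resistant replicate 3 on the right. MIR143 to MIR145 (diamond) is the lowest in both, at -3.68 and -4.46, and 50 of the 69 other pairs on the left lie within 1 of 0.

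Other miRNAs of chromosome 5 were read to see how the neighbourhood behaved. Of 87 listed whose hairpins all lie on this chromosome, 54 had counts and 19 were tested. With edgeR 1 of the 19 rose and 0 fell (5 had an unadjusted p under 0.05). DESeq2 called 2 of the 19 higher and 0 lower, against 98 higher and 51 lower of all 768 tested. The median log2 fold change of the 19 was -0.05, against -0.11 over all tested miRNAs. The 1 that rose was miR-449c-5p, a multiciliated-cell miRNA whose hairpin is 94.3 Mb from MIR143 towards the start of the chromosome. It was at 8.20 ± 0.347 CPM in resistant and 1.77 ± 0.128 CPM in sensitive cells (SD, n = 3 each), with a log2 fold change of 2.20 (SE 0.41, adjusted p = 0.0255 in edgeR). The nearest tested neighbour, miR-378a, which is made from an intron of PPARGC1B 0.304 Mb away, had log2 fold changes of -0.05 for its 3p and 0.40 for its 5p arm (edgeR adjusted p = 0.929 and 0.550). MiR-378a-3p was also the most abundant of the list, at 9691 ± 1834 CPM in resistant and 10050 ± 254 CPM in sensitive cells (SD, n = 3 each).

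The 5 tested miRNAs within 6 Mb of MIR143 had log2 fold changes between -0.41 and 2.19, and miR-1303 had the lowest p (log2 fold change 2.19, edgeR adjusted p = 0.122). MiR-1303 was at 803 CPM in resistant replicate 3, and at 181 and 204 CPM in resistant replicates 1 and 2, against 59.6 to 112 CPM in sensitive libraries. Without resistant replicate 3, 3 of 23 tested miRNAs of the chromosome rose and 3 fell with edgeR, in a fit that called 13.7% of all tested miRNAs higher and 14.4% lower, so the chromosome was near the background in both directions. Those that rose were miR-449c-5p, miR-449a and miR-1303, and those that fell were miR-3660, miR-340-5p and miR-146a-5p, named after their values were seen. MiR-146a-5p, which represses TRAF6 and IRAK1 and lies 11.1 Mb away, had a log2 fold change of -0.82 (edgeR adjusted p = 0.0152). Gains or losses of chromosome segments in either form of the line were not measured here.

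**Figure D5:**
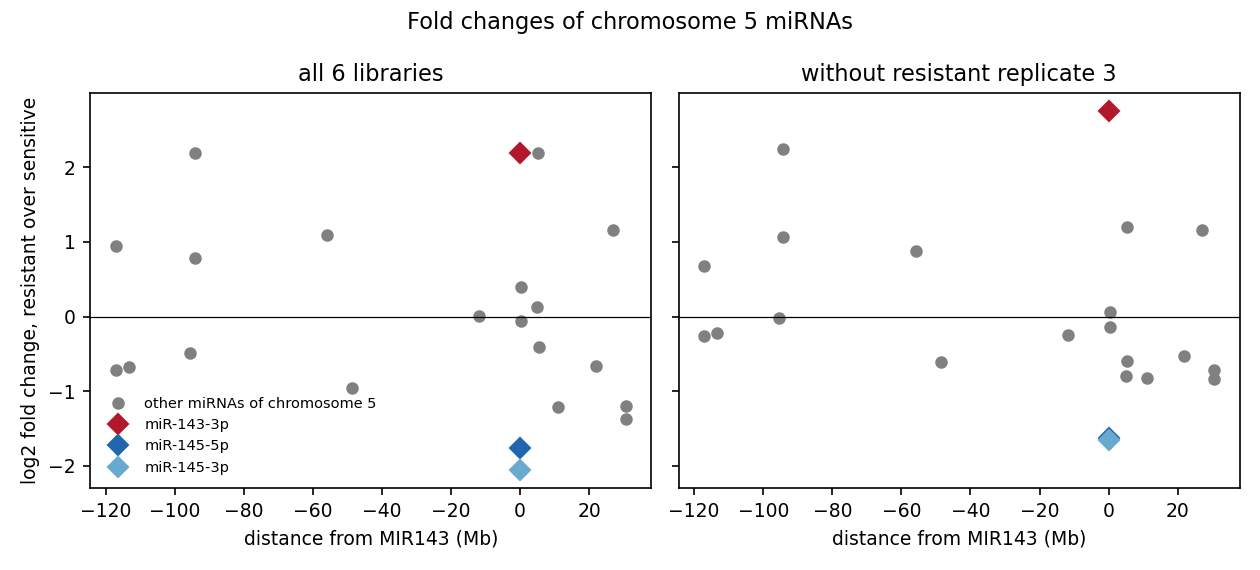
The log2 fold change (resistant over sensitive) of the members and of 19 other tested miRNAs of chromosome 5 against distance from MIR143 (Mb), with all 6 libraries on the left and without resistant replicate 3 on the right. The nearest neighbours, both arms of miR-378a, are at -0.05 and 0.40 on the left, between the values of miR-143-3p and the miR-145 arms.

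The miRNAs whose profile over the 6 libraries was most like that of a member were found by the distance between log2 CPM profiles, each centred on its own mean. Those nearest to miR-143-3p were miR-3065-3p, miR-196a-3p and let-7a-3p, at distances of 1.05, 1.12 and 1.34, against a median of 3.79 over 767 miRNAs. All 3 had overlapping groups and positive log2 fold changes of 1.66, 1.74 and 1.45 that did not pass (edgeR adjusted p = 0.172, 0.134 and 0.190). Those nearest to miR-145-5p were miR-181c-5p, miR-329-3p and miR-548h-3p (distances 0.69, 0.77 and 0.83, median 2.54). Those nearest to miR-145-3p were miR-411-5p, miR-495-3p and miR-411-3p of chromosome 14 (distances 0.61, 0.75 and 0.78, median 2.94). The miR-145 arms were 1.36 from each other, while miR-143-3p was 4.93 from miR-145-5p and 5.06 from miR-145-3p, farther than the median miRNA in either case. These likenesses depended on resistant replicate 3. Over the other 5 libraries, a set chosen after seeing the data, the nearest to miR-143-3p were miR-10399-3p, miR-193a-5p and miR-4455 (distances 0.34, 0.59 and 0.94, median 3.21), of which 0 were among the 3 found with all libraries. The nearest to miR-145-5p were then miR-181b-5p, miR-181c-5p and miR-21-5p (0.42, 0.44 and 0.48), and those to miR-145-3p were miR-181b-5p, miR-204-5p and miR-199b-5p (0.13, 0.39 and 0.39). The miR-145 arms were 0.52 from each other over these 5 libraries, and miR-143-3p was 4.93 from miR-145-5p and 4.90 from miR-145-3p.

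Markers of smooth muscle and stroma, the tissues in which this host is known to be high, were present only in part in K562 libraries. Of 14 listed, 6 were tested and 4 had no counts, namely miR-214-3p of stroma and miR-133b, miR-208b-3p and miR-490-5p of muscle. With all libraries 0 of the 6 passed with edgeR (3 had an unadjusted p under 0.05). DESeq2 called 3 of the 6 lower, in a fit that called 51 of all 768 tested miRNAs lower. MiR-199a-3p and miR-199b-3p had identical counts in every library and so stand for 1 measurement, which leaves 5 measurements. All of these had negative log2 fold changes (median -1.07, against -0.11 over all tested). With the shared counts taken once, a choice made after seeing the data, the summed level of the list was 84.4 to 399 CPM in resistant and 731 to 876 CPM in sensitive libraries. MiR-199b-5p was at 97.6 ± 73.0 CPM in resistant and 391 ± 45.7 CPM in sensitive cells (SD, n = 3 each), with a log2 fold change of -1.999 (adjusted p = 0.163 in edgeR). The shared miR-199 3p count had a log2 fold change of -1.36 (edgeR adjusted p = 0.150). Without resistant replicate 3, 2 of the 5 measurements fell, in a fit that called 14.4% of all tested miRNAs lower, with log2 fold changes of -1.43 for miR-199b-5p and -0.95 for the shared 3p arm (edgeR adjusted p = 0.000726 and 0.0108). The sign of this list's fold changes was that of miR-145 and not that of miR-143-3p, and the part of such cells in the result was not tested. In RNA from whole cultures, fewer cells of a kind and less RNA per cell cannot be told apart. Among 9 markers of liver, lymphocytes, endothelium, neurons and other tissues, 4 were tested and 0 passed with edgeR (1 had an unadjusted p under 0.05, and DESeq2 called 0). Their summed level was 9471 to 27388 CPM in resistant and 35774 to 55674 CPM in sensitive libraries, nearly all of it from both arms of miR-126. The other tested markers, miR-122-5p and miR-375-3p, had log2 fold changes of -0.14 and -0.25 (edgeR adjusted p = 0.854 and 0.726). MiR-126-3p, an endothelial and blood stem cell miRNA, had the lowest p, at 18628 ± 8476 CPM in resistant and 42914 ± 7906 CPM in sensitive cells (SD, n = 3 each), with a log2 fold change of -1.20 (adjusted p = 0.166 in edgeR). MiR-126-5p, its opposite arm, had a log2 fold change of -1.71 (edgeR adjusted p = 0.198). Without resistant replicate 3, miR-126-3p fell (log2 fold change -0.82, edgeR adjusted p = 0.00883).

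The other miRNAs linked to p53 gave no call in edgeR in either direction. Of 13 listed without the members, 8 were tested and 0 passed with edgeR (0 had an unadjusted p under 0.05, and DESeq2 called 0). Limma-voom with quality weights called 1 of the 8 higher and 1 lower, against 148 higher and 175 lower of all 768 tested. The median log2 fold change of the 8 was -0.37, with 2 positive and 6 negative. MiR-215-5p, from a cluster that p53 induces, was at 17.0 ± 10.6 CPM in resistant and 27.1 ± 9.90 CPM in sensitive cells (SD, n = 3 each), with a log2 fold change of -0.65 (adjusted p = 0.523 in edgeR). MiR-34a-5p, the best known p53-induced miRNA, was at 2.62 ± 0.935 CPM in resistant and 2.06 ± 0.621 CPM in sensitive cells (SD, n = 3 each), with a log2 fold change of 0.43 (adjusted p = 0.592 in edgeR). MiR-1246 was the most abundant of the list, at 2481 ± 1133 CPM in resistant and 3422 ± 2355 CPM in sensitive cells (SD, n = 3 each), with a log2 fold change of -0.46 (adjusted p = 0.660 in edgeR). Without resistant replicate 3 the median log2 fold change over the 9 then tested was 0.02.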

How the data were processed

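Small RNA of 3 resistant and 3 sensitive K562 samples was made into libraries with a NEBNext kit and sequenced on a NovaSeq instrument, per the labels' protocols. The authors deposited whole-number read counts per mature miRNA, with no normalization found in them. GRCh38 is the genome build named in the submitters' processing notes. Which aligner, counter and miRBase release were used, and how reads matching several miRNAs were treated, is not given in the sources used here, so counts of close relatives are uncertain.

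The deposited counts were tested in R 4.3.3 with edgeR 4.0.16. The filterByExpr filter (minimum count 10, minimum total 15) left 768 of 2656 miRNAs, and TMM factors scaled the libraries. The quasi-likelihood F test had no covariates, and p-values were adjusted over all tested miRNAs by the Benjamini-Hochberg method (threshold 0.05). An SE is the size of a log2 fold change over the root of its F statistic. Ratios and shares within a library were compared by exact two-sided permutation tests over libraries, and intervals are exact 95% binomial intervals. The fit was tested on simulated data. These had the same spread setting for every miRNA and no outlying library, so they do not show how it performs with resistant replicate 3. Replicates of a group differed by more than sampling noise (chi-square per degree of freedom 124 to 4015), so each library was counted as 1 sample. With library totals of 3291500 to 12563945, a floor of 3 counts equals 0.239 to 0.911 CPM.

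The members and lists were chosen with earlier results of these data known. Named were the 4 members, the 3 miRNAs nearest in profile to each tested member, and from each list the most abundant miRNA and the 2 with the lowest adjusted p; others are said to be chosen later. The lists hold erythroid, smooth muscle and stromal, other tissue, p53-linked, chromosome 5 and shared-seed miRNAs. Alternatives were RLE factors, library totals, 2 other filters, DESeq2 1.42.0, limma 3.58.1 (voom, without and with quality weights), a replicate block, a GC correction and leaving out each library. Sequences and positions are from RefSeq (GRCh38.p14) and host transcripts from GENCODE 29; GC content was known for 88.2% of tested miRNAs.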

Additional observations from a re-analysis of the deposited data

How the results depend on the processing

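Across the normalizations, filters, tools, block, GC correction and left-out libraries tried, no tested arm changed direction. The hairpin ratio and the arm shares were not corrected for GC content. With an added count, a replicate block or a left-out library, they moved by less than the pooled spread of both groups. Resistant replicate 3 widens that spread: without it the ratio (-4.46, against -3.68) and the miR-145 arm share (0.36 points, against 6.26) moved by more than the sensitive SD (0.58 and 5.05). Calls did depend on the setting. MiR-145-5p missed the threshold in edgeR with RLE factors (log2 fold change -1.65, adjusted p = 0.0571), with library totals (-1.58, adjusted p = 0.0794) and with a minimum mean of 10 CPM (-1.59, adjusted p = 0.0599). It passed without a filter (-1.79, edgeR adjusted p = 0.0278) and with DESeq2 (-1.65, adjusted p = 9.09e-06). In limma-voom it passed without and with quality weights (-1.76 in each, adjusted p = 0.0342 and 1.44e-06). MiR-143-3p passed without a filter (2.22, edgeR adjusted p = 0.00466), with DESeq2 (2.23, adjusted p = 0.0200) and with limma-voom quality weights (2.82, adjusted p = 2.91e-08). MiR-145-3p passed in these settings too (-2.06, -1.97 and -1.62) and with the GC correction (-1.75). Over all planned settings the adjusted p of edgeR, DESeq2 or limma ran from 2.91e-08 to 0.365 for miR-143-3p, from 1.44e-06 to 0.292 for miR-145-5p and from 9.07e-06 to 0.272 for miR-145-3p.

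Against 16 higher and 16 lower calls over all tested miRNAs, there were 9 higher with RLE factors, 27 higher with library totals, 115 higher and 47 lower without a filter, 8 and 6 with a minimum mean of 10 CPM, 98 and 51 with DESeq2, 148 and 175 with quality weights, and 42 and 33 with the GC correction. Calls within the lists numbered 1, against 7 without a filter, 0 with the minimum mean, 7 with DESeq2 and 20 with quality weights. Chosen after seeing the data were library totals without miR-92a-3p (32 higher; miR-145-5p at -1.22, edgeR adjusted p = 0.0731) and the GC correction without resistant replicate 3 (99 higher, 116 lower and 13 in lists; miR-143-3p at 2.76 and miR-145-3p at -1.50).

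Leaving out 1 library at a time gave 1 to 113 higher calls, 3 to 118 lower calls and 0 to 12 in lists. It gave log2 fold changes of 1.90 to 2.75 for miR-143-3p, -1.75 to -1.53 for miR-145-5p and -2.26 to -1.65 for miR-145-3p, and all 3 passed only without resistant replicate 3. The hairpin ratio difference ran from -4.46 to -3.27, and the arm share difference from 0.36 to 10.6 percentage points for miR-145 and from -0.62 to -0.27 for miR-143.

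Whether the replicate numbers pair the libraries is not known. Deviations of same-numbered libraries from their group means correlated at -0.06, 0.26 and 0.13. With 3 libraries per group, of which resistant replicate 3 stood apart, such correlations cannot decide it. With the replicate number as a block there were 8 higher calls, 15 lower calls and 0 in lists, and miR-145-5p was at -1.77 (edgeR adjusted p = 0.112). Within numbers the ratio differed by -4.53, -5.02 and -1.50.

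Resistant replicate 3, with the fewest counts, holds 35 counts of miR-143-3p and 11 of miR-145-3p. An exact test of 3 libraries against 3 cannot give a p under 0.1, and miR-143-5p rests on 15 counts.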
